A study of Homo sapiens with 42 samples.

Results

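The genes described here were 44 genes of DNA replication, taken by name from a list of genes for origin licensing, the replication fork and nucleotide supply. All 44 were found among the 28266 gene symbols of the count table and all 44 passed the filter on low counts in both cell lines. RNA was sequenced from human lung fibroblasts in 42 libraries. IMR90 is an established strain of such fibroblasts, and IMR90 ER:RAS is a derivative whose RAS oncoprotein, fused to an oestrogen receptor domain, is switched on by 4-hydroxytamoxifen (4OHT) and drives oncogene-induced senescence (OIS). Bleomycin, which breaks DNA, was the senescence trigger in IMR90. The design served to compare normal with senescent cells while the coatomer subunit COPB2, part of the COPI vesicle coat, was depleted.

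The 12 groups combined line, treatment and short-hairpin RNA (shRNA), with 3 libraries a group for ER:RAS and 4 for IMR90. ER:RAS cells had DMSO or 100 nM 4OHT, and IMR90 cells had DMSO or 50 µg/ml bleomycin for 24 h. After 7 days every group, controls included, received 1 µg/ml doxycycline for 72 h, which induced a control shRNA, COPB2 shRNA 1 or COPB2 shRNA 2, and cells were collected on day 10. The labels do not tie the replicates to separate cultures, whereas the study describes its replicates of these knockdowns as independent experiments. P-values measure the spread between these libraries.

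A dividing cell loads the MCM2-7 helicase on origins in G1 phase, through ORC, CDC6 and CDT1, and fires it in S phase with MCM10, CDC45 and the GINS complex. Polymerases then copy DNA on a sliding clamp, PCNA, from nucleotides made by enzymes such as ribonucleotide reductase and thymidylate synthase. E2F transcription factors drive many of these genes at the entry to S phase, and senescent fibroblasts, which have left the cell cycle for good, are known for low levels of them.

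Because E2F activity is the textbook control of this gene set, the promoters were searched for the E2F motif, read as TTT, then 2 bases each C or G, then CGC, on both strands. RefSeq promoter windows of GRCh38.p14 (250 bases before the start to 50 after) were found for 37 of the 44 genes, in 51 windows. The motif stood in 23 of these 51 windows (45.1%), against 3.31% of all 35116 windows. The motif CCAAT, bound by NF-Y, stood in 54.9% of the windows against 34.6% of all, and the motif TTTGAA (CHR), found in promoters of mitotic genes, in 3.92% against 15.2%. Stretches of 200 bases (170 before the start to 30 after) are shown for 6 genes that the results below turn on, with E2F motif matches in capitals, where overlapping matches on both strands run together and RRM2 has none in the stretch shown: MCM6 of the helicase, POLE2 of the leading-strand polymerase and RRM2 of ribonucleotide reductase, which were lower in both models, PCNA and TYMS, which went opposite ways, and E2F1, which was higher in OIS. A match describes the letters and is not shown to be a site.
MCM6 (chr2:135876414-135876613, minus strand): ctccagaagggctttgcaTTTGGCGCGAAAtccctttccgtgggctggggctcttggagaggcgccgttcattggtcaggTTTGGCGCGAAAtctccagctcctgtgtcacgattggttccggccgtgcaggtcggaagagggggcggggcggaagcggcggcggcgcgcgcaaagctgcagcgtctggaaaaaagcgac
POLE2 (chr14:49688185-49688384, minus strand): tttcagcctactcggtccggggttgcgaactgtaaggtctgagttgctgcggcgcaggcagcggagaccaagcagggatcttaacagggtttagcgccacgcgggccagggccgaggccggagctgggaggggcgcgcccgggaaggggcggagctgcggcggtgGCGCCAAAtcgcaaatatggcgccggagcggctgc
RRM2 (chr2:10122569-10122768, plus strand): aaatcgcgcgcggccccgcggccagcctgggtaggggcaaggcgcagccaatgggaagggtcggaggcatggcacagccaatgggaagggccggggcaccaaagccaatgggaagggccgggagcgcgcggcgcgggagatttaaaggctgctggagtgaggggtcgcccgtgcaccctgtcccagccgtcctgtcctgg
PCNA (chr20:5126593-5126792, minus strand): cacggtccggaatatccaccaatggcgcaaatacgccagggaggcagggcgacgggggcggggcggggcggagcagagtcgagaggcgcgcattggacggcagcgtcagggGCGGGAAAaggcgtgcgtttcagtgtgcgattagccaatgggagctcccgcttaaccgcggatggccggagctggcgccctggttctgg
TYMS (chr18:657483-657682, plus strand): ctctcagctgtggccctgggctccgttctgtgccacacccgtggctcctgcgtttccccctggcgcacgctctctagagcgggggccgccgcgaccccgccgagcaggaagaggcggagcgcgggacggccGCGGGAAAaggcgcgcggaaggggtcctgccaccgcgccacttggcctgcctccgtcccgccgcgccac
E2F1 (chr20:33686356-33686555, minus strand): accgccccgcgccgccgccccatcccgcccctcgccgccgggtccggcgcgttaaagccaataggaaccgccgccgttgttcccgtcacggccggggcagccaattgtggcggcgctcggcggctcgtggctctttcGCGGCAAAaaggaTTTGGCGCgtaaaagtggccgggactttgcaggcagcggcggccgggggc

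The agents that separate the knockdown groups are the hairpins, whose 22-base guide strands are antisense to the coding sequence of COPB2 on the minus strand of chromosome 3 (GRCh37). The guide of shRNA 1 pairs with exon 11 at chr3:139088345-139088366 and that of shRNA 2 with exon 4 at chr3:139097987-139098008, exons being counted in the Ensembl canonical transcript.
COPB2 shRNA 1: ttaaatatctttacaatgctgt
COPB2 shRNA 2: taattgaacactctaatctgca

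Library totals ran from 13148194 to 23597310 counts, and 3 counts corresponded to 0.110 to 0.271 CPM (counts scaled to the library size with TMM factors). COPB2 stood at 267 to 620 CPM in libraries with the control shRNA and at 33.9 to 122 CPM in those with a COPB2 shRNA, without overlap. Fibroblast identity was checked with 9 markers (collagen genes, VIM, PDGFRA and others), all of which were over 1 CPM in every group. In control-shRNA libraries they summed to 18218 to 25314 CPM in DMSO-treated and 15029 to 24499 CPM in 4OHT-treated ER:RAS cells. In IMR90 cells the sums were 22005 to 27797 CPM with DMSO and 11959 to 21083 CPM with bleomycin. Other lists also had markers over 1 CPM: 3 of 6 epithelial, 1 of 4 endothelial (3 in 4OHT) and 3 of 3 smooth muscle (2 in 4OHT). With the control shRNA, 6 epithelial markers summed to 154 to 223 CPM in DMSO-treated and 52.8 to 198 CPM in 4OHT-treated ER:RAS cells (87.2 to 186 and 68.4 to 201 CPM in IMR90 cells with DMSO and bleomycin). For 4 endothelial markers the sums were 1.20 to 3.67 and 9.25 to 11.2 CPM (3.18 to 4.77 and 2.13 to 3.64 in IMR90), for 4 immune markers 17.2 to 40.2 and 110.0 to 121 CPM (13.3 to 29.5 and 59.0 to 98.5), with 1 of the 4 over 1 CPM, and for 3 smooth muscle markers 520.4 to 771 and 162 to 340 CPM (349 to 757 and 230.5 to 454). Their part in the results was not tested. The control-shRNA library of 4OHT-treated ER:RAS cells numbered 1 stood apart for the replication genes, with a summed level of 692 CPM against 514 and 487 CPM in the other two, and COPB2 in it was 360 CPM against 458 and 620 CPM. Bleomycin-treated IMR90 cells with COPB2 shRNA 2 likewise had 1 high library, replicate 2, at 785 CPM against 586 to 668 CPM. Both libraries had low TMM factors, 0.611 against 0.831 and 0.907 in 4OHT and 0.873 against 1.09 to 1.11 after bleomycin. A low factor raises every CPM value of its library, and its part in the high sums was not tested.

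In OIS most of the replication genes fell. With the control shRNA, 29 of the 44 genes were lower in 4OHT-treated than in DMSO-treated ER:RAS cells (edgeR quasi-likelihood test, Benjamini-Hochberg adjusted p under 0.05), or 65.9%, where 20.2% of all 14297 genes tested were lower. The 2 genes that rose were ORC6 and E2F1, where 15.5% of all genes were higher. The median log2 fold change of the 44 genes was -1.04 against -0.08 over all genes tested, and in 26 of the 44 every senescent library was below every DMSO library (20.6% of all genes). The summed level of the 44 genes went from 834 ± 47.9 CPM (SD, n = 3) in DMSO to 564 ± 111 CPM (SD, n = 3) in 4OHT. Without 4OHT replicate 1 the median was -1.14 and no gene was called higher (E2F1 0.62 on the log2 scale), and leaving out each library in turn gave 21 to 26 genes lower. Of the 31 calls 20 were kept in all 6 such fits. POLE was lost in 5 of them, and ORC6, GMNN, MCM5, POLA1, POLD3 and LIG1 in 4. MCM7 and E2F1 were lost in 3, PCNA in 2 and DUT in 1, with adjusted p up to 0.289 among the lost calls. Bulk RNA gives an average over cells, in which fewer cells in S phase and less RNA per cell cannot be told apart.

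After bleomycin more replication genes fell than rose, and log2 changes were below 0 in 34 of the 44 genes, as in OIS. In IMR90 cells 22 of the 44 genes were lower (15.8% of all 14783 genes tested) and 3 were higher, PCNA, LIG1 and TYMS (15.4% of all genes). The median log2 fold change was -0.70 against -0.01 over all genes, and 17 genes were lower without overlap of libraries (13.9% of all genes). The summed level was 647 ± 41.9 CPM (SD, n = 4) in DMSO and 619 ± 19.9 CPM (SD, n = 4) after bleomycin, and the ranges of both groups overlapped. Abundant genes weigh most in this sum, among them PCNA and TYMS, which rose. PCNA stood at 45.5 to 59.7 CPM in DMSO and 112 to 152 CPM after bleomycin, and TYMS at 14.3 to 23.5 and 47.4 to 62.2 CPM. The sum therefore does not show how most of the 44 genes moved. Across both models 18 genes fell in both, 8 fell and 2 rose in OIS without passing the test after bleomycin, 4 fell after bleomycin without passing it in OIS, 3 moved in opposite directions and 9 passed in neither. Of the 25 calls after bleomycin 18 were kept in all 8 fits without 1 library. CDC45 was lost in 6 of them, LIG1 in 5, RFC3 and RFC4 in 4, GMNN and RFC2 in 3 and DUT in 2. Adjusted p among the lost calls went up to 0.135. A pass in 1 model alone is no test of a difference between them.

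**Figure D1:**
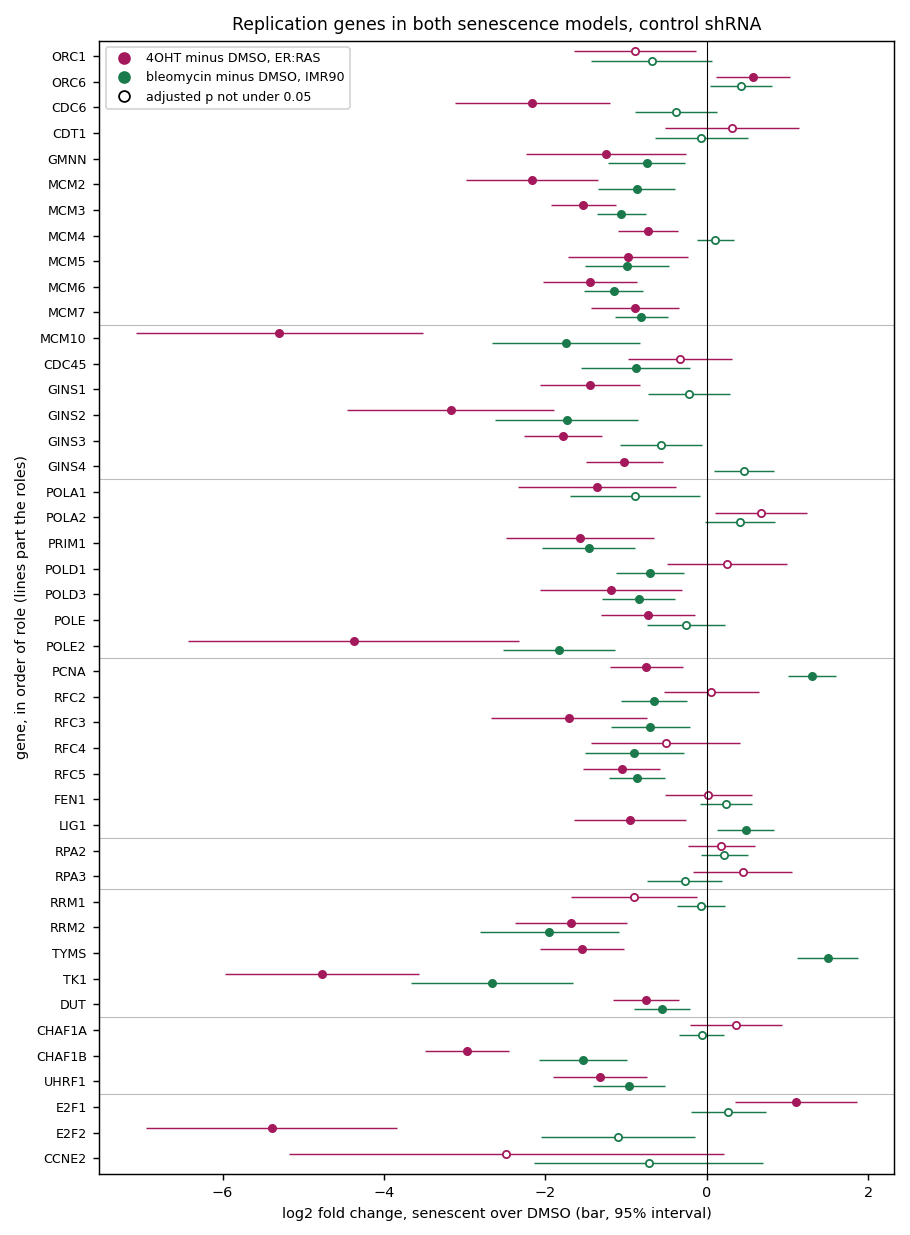
Log2 fold change of each replication gene (horizontal axis) in senescent over DMSO-treated cells with the control shRNA, for 4OHT in ER:RAS and bleomycin in IMR90 cells, bars being 95% intervals and open points genes with adjusted p of 0.05 or more. Most points lie left of 0 in both models, while PCNA and TYMS lie left of 0 in OIS and right of 0 after bleomycin.

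Among the 11 licensing genes, 8 fell and 1 rose in OIS, and 6 fell after bleomycin. MCM2, a subunit of the helicase ring, stood at 31.9, 53.9 and 22.3 CPM in the 3 DMSO libraries of ER:RAS cells and at 11.5, 7.93 and 6.27 CPM in the 4OHT libraries. In IMR90 cells it was 31.3, 21.1, 19.7 and 23.4 CPM in DMSO and 15.1, 16.2, 8.40 and 13.3 CPM after bleomycin. No senescent library of either line reached the lowest DMSO library, and the log2 fold change was -2.16 ± 0.39 (SE, adjusted p = 3.9e-04) for 4OHT and -0.87 ± 0.23 (adjusted p = 0.00581) for bleomycin. MCM3, MCM5, MCM6 and MCM7 also fell in both models, by 0.89 to 1.53 on the log2 scale in OIS and by 0.81 to 1.16 after bleomycin. MCM4 fell only in OIS (-0.73 ± 0.17, adjusted p = 0.00381), while after bleomycin it was 0.10 ± 0.11 with a 95% interval of -0.13 to 0.33.

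On a scale per transcript length the 6 subunits, which form a ring in equal numbers, were not at equal RNA levels. In DMSO-treated ER:RAS cells MCM7 was highest at 26.4 ± 6.09 RPKM (CPM per kilobase of transcript, SD, n = 3), MCM3 followed at 13.9 ± 2.08 RPKM, and MCM6, MCM2, MCM4 and MCM5 lay between 8.69 and 10.8 RPKM with overlapping libraries. After 4OHT MCM7 was still highest at 15.4 ± 5.94 RPKM and MCM2 was lowest at 2.49 ± 0.772 RPKM. Both orders are descriptions over 3 libraries.

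CDC6, the ATPase that brings the helicase to origins, was 5.30, 5.32 and 9.29 CPM in DMSO-treated ER:RAS cells and 0.812, 1.26 and 2.60 CPM in 4OHT, without overlap, and fell by 2.16 on the log2 scale (SE 0.45, adjusted p = 0.00150). After bleomycin it was 2.30, 3.15, 2.07 and 3.16 CPM against 2.69, 3.17, 5.14 and 2.69 CPM in DMSO, groups that overlapped (log2 -0.39 ± 0.25, adjusted p = 0.256). GMNN encodes geminin, which binds CDT1 and blocks relicensing. Its libraries overlapped in OIS, at 3.25, 2.58 and 4.50 CPM against 7.80, 3.67 and 11.2 CPM, with a log2 change just past the threshold (-1.25 ± 0.47, adjusted p = 0.0488). In IMR90 cells GMNN was 5.92, 7.61, 9.64 and 8.06 CPM in DMSO and 4.17, 3.50, 6.04 and 5.39 CPM after bleomycin, where it fell (-0.75 ± 0.23, adjusted p = 0.0159) with 1 bleomycin library above the lowest DMSO library.

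The origin recognition subunits and CDT1 were not called lower in either model. ORC6 rose in OIS by 0.58 ± 0.22 on the log2 scale, with an adjusted p of 0.0486, and stood at 0.42 ± 0.18 with bleomycin (adjusted p = 0.0878). ORC1 did not pass the test in either model (-0.89 and -0.68), although its value in OIS was as low as that of MCM7. With the replicate number as a block ORC1 passed in OIS by edgeR (adjusted p = 0.0325). Replicate numbers did not pair the libraries of that contrast, however (correlations of deviations from -0.72 to 0.63). Also short of the threshold was CDT1, the partner of CDC6 in loading (0.31 and -0.07).

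Of the 6 genes for helicase activation, 5 fell in OIS and 3 after bleomycin. MCM10, which helps to start unwinding, had 2 counts over the 4OHT libraries against 114 over the 3 DMSO libraries, a ratio of 42.6 (95% interval 11.8 to 352, counting error only). After bleomycin MCM10 was lower by -1.74 ± 0.44 on the log2 scale (adjusted p = 0.00448). GINS2, of the GINS ring that ties the helicase to the polymerase, was -3.17 in OIS and -1.74 after bleomycin, and passed the test in both. The other GINS genes fell in OIS alone, GINS1 by 1.45, GINS3 by 1.78 and GINS4 by 1.02. After bleomycin GINS1 was -0.22, GINS3 -0.57 and GINS4 0.46, none past the threshold. In 5 other settings of the analysis, GINS4 was called higher after bleomycin in 3 and GINS3 lower in 1. CDC45, the remaining helicase partner, passed the test after bleomycin and not in OIS. It was 3.11, 3.99 and 4.67 CPM in DMSO and 4.60, 3.37 and 2.22 CPM in 4OHT (log2 -0.33 ± 0.30, adjusted p = 0.446), and fell after bleomycin from 1.91, 1.24, 2.201 and 1.58 CPM to 0.958, 0.746, 0.633 and 1.45 CPM (-0.88 ± 0.33, adjusted p = 0.0441), with overlap in both lines.

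Polymerase genes fell in 5 of 7 cases in OIS and 4 of 7 after bleomycin. POLE2, a small subunit of the leading-strand polymerase, was near the floor of detection in OIS, at 0, 0.132 and 0.0634 CPM against 2.04, 0.317 and 2.07 CPM in DMSO, or 3 counts against 88 (ratio 21.9, interval 7.50 to 106). In IMR90 cells it went from 1.08, 1.79, 1.57 and 1.316 CPM to 0.575, 0.172, 0.460 and 0.415 CPM, without overlap (-1.83 ± 0.34, adjusted p = 2.42e-04). POLE, the catalytic subunit, fell in OIS (-0.73, adjusted p = 0.0475), and its value with bleomycin was -0.26 (adjusted p = 0.449). PRIM1, the primase that lays RNA primers, and POLD3, an accessory subunit of the lagging-strand polymerase, fell in both models, PRIM1 by 1.57 and 1.46 and POLD3 by 1.19 and 0.84 on the log2 scale. POLA1, the catalytic subunit that extends primers, fell in OIS (-1.36, adjusted p = 0.0304) and was -0.89 after bleomycin (adjusted p = 0.0873). Its partner POLA2 was at 0.67 and 0.41, neither past the threshold. POLD1, the catalytic subunit on the lagging strand, was 0.25 in OIS, a value that became -0.14 without 4OHT replicate 1, and fell after bleomycin (-0.71, adjusted p = 0.0107).

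PCNA, the sliding clamp, moved in opposite directions. In ER:RAS cells it was 71.7, 51 and 87.2 CPM in DMSO and 49.1, 45.01 and 40.99 CPM in 4OHT, and fell by 0.75 on the log2 scale (SE 0.21, adjusted p = 0.0117). In IMR90 cells it was 49.9, 45.5, 59.7 and 47.6 CPM in DMSO and 125, 112, 152 and 122 CPM after bleomycin, and rose by 1.30 ± 0.14 (adjusted p = 8.46e-07). Groups did not overlap in either line. The fall in OIS was not called without DMSO replicate 3 (log2 -0.47, adjusted p = 0.0949), nor without 4OHT replicate 2. PCNA is, besides its role at the fork, a known target of p53, and has named pseudogenes, as 10 of the 44 genes do, with which reads may be shared.

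The clamp loader genes RFC3 and RFC5 fell in both models, RFC3 by 1.71 and 0.70 and RFC5 by 1.06 and 0.86 on the log2 scale. RFC2 and RFC4, further subunits of the loader, fell after bleomycin (-0.65 and -0.90) and were 0.05 and -0.51 in OIS. LIG1, the ligase that joins lagging-strand pieces, fell in OIS (-0.95 ± 0.33, adjusted p = 0.0334) and rose after bleomycin (0.48 ± 0.17, adjusted p = 0.0339). Its libraries overlapped in both lines, unlike those of PCNA. They were 14.5, 9.85 and 5.83 CPM in 4OHT against 17.2, 23.4 and 13.6 CPM in DMSO. In IMR90 cells they were 21.3, 22.3, 18.5 and 17.6 CPM after bleomycin against 18.2, 12.8, 11.9 and 13.3 CPM in DMSO. The fall lost its call in 4 of 6 fits without 1 library, and the rise in 5 of 8. FEN1, the nuclease that trims lagging-strand pieces, was 0.02 and 0.24 and passed in neither model.

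RPA2 and RPA3, of the complex that coats single-stranded DNA at forks and at DNA damage, did not pass the test in either model. RPA3 was 12.2, 7.48 and 15.3 CPM in DMSO and 25.5, 14.2 and 12.4 CPM in 4OHT (log2 0.44 ± 0.29, adjusted p = 0.258), with 4OHT replicate 1 far above the rest. In IMR90 cells it was 11.6, 8.99, 9.93 and 8.74 CPM in DMSO and 7.28, 9.92, 6.85 and 9.02 CPM after bleomycin (-0.28 ± 0.22, adjusted p = 0.389). RPA2 was 0.18 and 0.21.

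Of the 5 genes of nucleotide supply, 4 fell in OIS, while 3 fell and 1 rose after bleomycin. TK1, the thymidine kinase of S phase, was 15.2, 22.5 and 15.7 CPM in DMSO and 1.53, 0.264 and 0.380 CPM in 4OHT (-4.77 ± 0.57, adjusted p = 9.73e-06), and 13.5, 6.10, 9.15 and 8.11 CPM against 0.862, 2.98, 0.460 and 1.61 CPM after bleomycin (-2.66 ± 0.48, adjusted p = 2.2e-04). No senescent library of TK1 overlapped DMSO in either line. RRM2, the S-phase subunit of ribonucleotide reductase, was 19.1, 19.5 and 25.9 CPM in DMSO and 5.51, 6.21 and 9.63 CPM in 4OHT (-1.68 ± 0.33, adjusted p = 7.86e-04). In IMR90 cells RRM2 was 12.8, 7.75, 14.1 and 8.58 CPM in DMSO and 1.53, 4.01, 1.21 and 4.62 CPM after bleomycin (-1.95 ± 0.41, adjusted p = 9.32e-04), again without overlap. RRM1, its partner, which is present throughout the cycle, passed in neither model (-0.90 and -0.07). DUT, which clears dUTP, fell by 0.76 and 0.56.

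TYMS, thymidylate synthase, took the same course as PCNA. It was 40, 35.1 and 41.9 CPM in DMSO-treated ER:RAS cells and 17.6, 13.5 and 11.97 CPM in 4OHT (-1.55 ± 0.24, adjusted p = 1.38e-04). In IMR90 cells it was 23.5, 15.8, 21.1 and 14.3 CPM in DMSO and 54.4, 51.1, 62.2 and 47.4 CPM after bleomycin (1.5 ± 0.18, adjusted p = 2.41e-06). Every 4OHT library was below, and every bleomycin library above, all DMSO libraries of the same line. TYMS is among 14 of the 44 genes that overlap another coding gene on the genome, in its case ENOSF1 on the opposite strand, and the strand setting of the counting is not given in the sources used here.

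Of the 3 genes for chromatin behind the fork, CHAF1B and UHRF1 fell in both models. CHAF1B, a subunit of the histone chaperone CAF-1, had the smallest adjusted p of the 44 in OIS, going from 7.29, 8.93 and 6.69 CPM to 1.08, 0.991 and 1.01 CPM (-2.97 ± 0.25, adjusted p = 2.31e-07). After bleomycin CHAF1B was 2.59, 2.64, 2.24 and 2.59 CPM against 8.79, 6.10, 6.07 and 7.79 CPM (-1.54 ± 0.26, adjusted p = 1.15e-04). CHAF1A, the large subunit, passed in neither model (0.36 and -0.07). UHRF1, which guides the copying of DNA methylation, was 10.3, 10.3 and 11.8 CPM in DMSO and 4.15, 4.10 and 5.51 CPM in 4OHT (-1.32 ± 0.27, adjusted p = 0.00130), and 6.40, 7.52, 12.03 and 6.90 CPM in DMSO and 3.54, 4.65, 5.64 and 3.42 CPM after bleomycin (-0.97 ± 0.21, adjusted p = 0.00134).

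The genes of S-phase entry differed among themselves. E2F1, an activator of replication genes, was 9.07, 12.8 and 10.5 CPM in DMSO and 41.4, 18.04 and 16.03 CPM in 4OHT and rose by 1.11 ± 0.36 (adjusted p = 0.0241), without overlap. In IMR90 cells it was 8.02, 4.22, 5.33 and 4.21 CPM in DMSO and 7.71, 7.68, 6.04 and 5.13 CPM after bleomycin, which overlapped (0.27 ± 0.22, adjusted p = 0.411). E2F2, a related activator, had 1 count over the 4OHT libraries against 70 in DMSO (ratio 52.3, interval 9.39 to 2066), and was -1.10 after bleomycin (adjusted p = 0.0749). CCNE2, a cyclin that starts S phase, was 0.866, 0.0634 and 3.03 CPM in DMSO and 0.0903, 0.198 and 0.443 CPM in 4OHT, and its spread in DMSO left the log2 change of -2.48 ± 1.26 short of the threshold (adjusted p = 0.146). Without DMSO replicate 3 the change of CCNE2 was -0.92. In IMR90 cells CCNE2 was 0.179, 0.826, 1.08 and 0.790 CPM in DMSO and 0.431, 0.115, 0.518 and 0.726 CPM after bleomycin, which overlapped (-0.72 ± 0.68, adjusted p = 0.471).

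**Figure D2:**
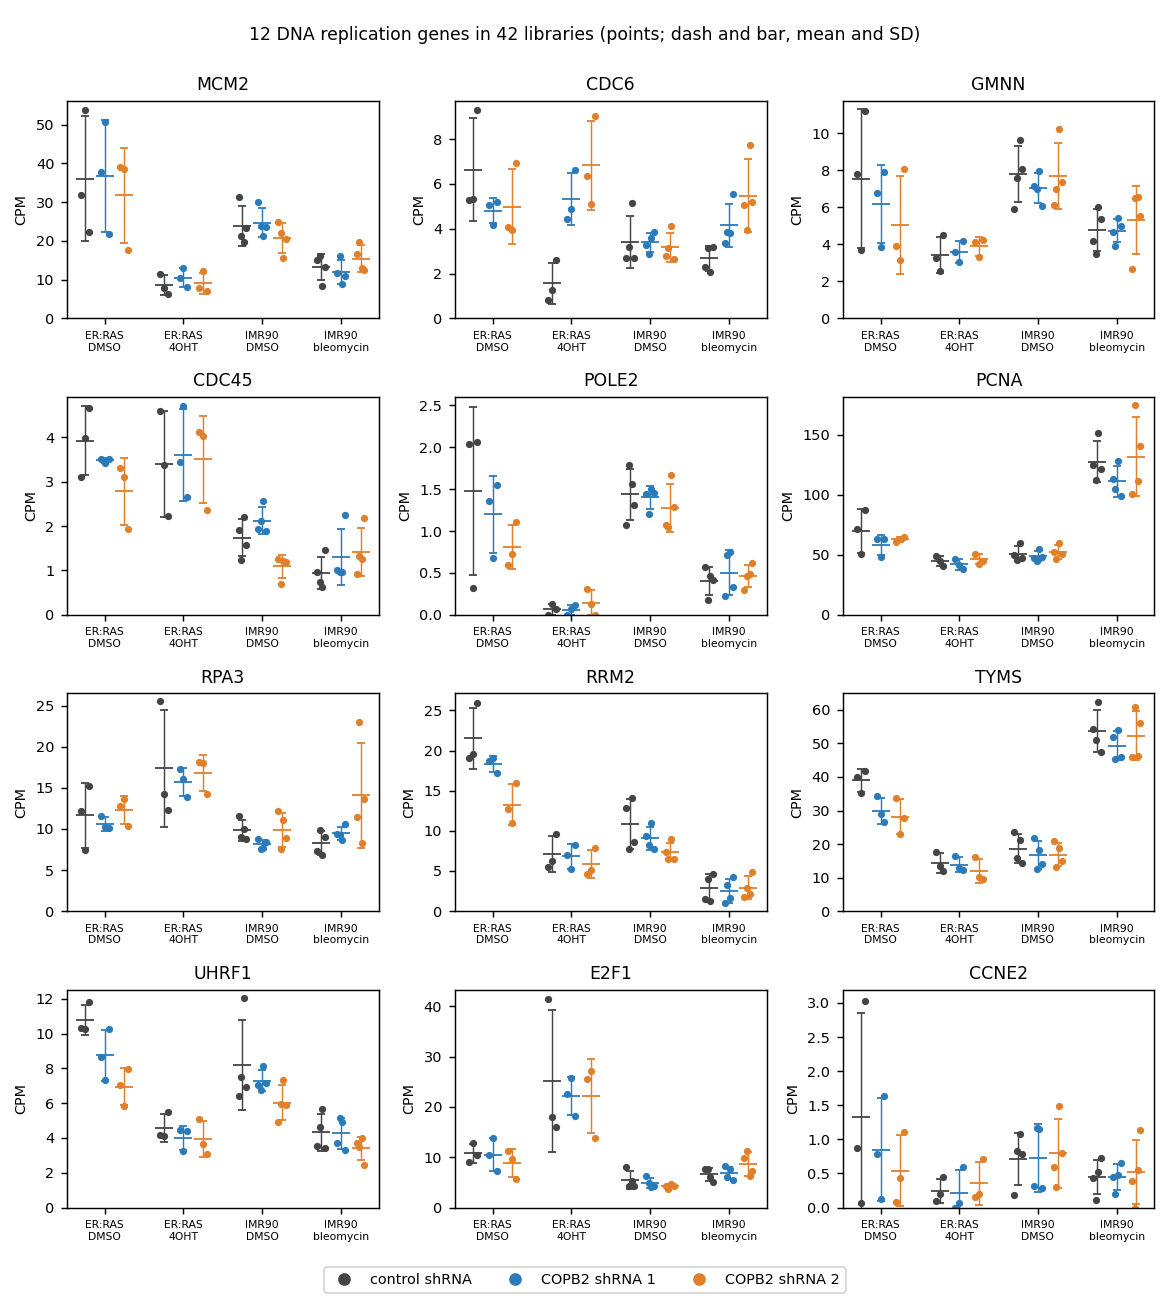
Level in CPM (vertical axis) of 12 replication genes in each of the 42 libraries (points) over the 12 groups, with group mean and SD. PCNA and TYMS are above DMSO in all bleomycin libraries and E2F1 is above DMSO in all 4OHT libraries with the control shRNA, where MCM2 and RRM2 are below DMSO.

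Whether both senescence models differed for these genes was tested as the difference of both log2 changes in a fit of all 42 libraries. 12 of the 44 genes were lower in OIS minus bleomycin (12.1% of all 15299 genes tested) and 0 were higher by edgeR (8.14% of all genes), with 4 higher at an unadjusted p under 0.05 (12.8% of all genes) and 1 called higher by DESeq2. Among the 12, TYMS differed by -2.97 ± 0.30 on the log2 scale (adjusted p = 7.48e-09), PCNA by -1.97 ± 0.24 (adjusted p = 2.32e-07) and LIG1 by -1.35 ± 0.36 (adjusted p = 0.00641), each falling in OIS and rising after bleomycin. For LIG1 the libraries overlapped within each line. CDC6, MCM4, GINS1, GINS3, GINS4 and E2F2 fell in OIS alone, and MCM2, MCM10 and CHAF1B fell in both, further in OIS. The call of MCM2 was the least stable of the 12, being lost in 10 of 14 fits without 1 library (-0.82, adjusted p = 0.210, without DMSO replicate 2 of ER:RAS) and in 3 of 5 other settings (adjusted p up to 0.0885). GINS1 was lost in 2 of the 14 and GINS3 in 1. Of the 5 other settings GINS1 was lost in 2 (adjusted p up to 0.0548), GINS3 in 1 (0.0665) and CDC6 in 1 (0.0541). The models used different lines and agents, so trigger and line cannot be told apart.

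In DMSO, ER:RAS cells had higher levels than IMR90 cells for 37 of the 44 genes and lower levels for 7 (50.2% of all genes were lower), with a median log2 difference of 0.43 against -0.00 over all genes. Only TYMS passed the test, by 1.06 ± 0.21 (adjusted p = 0.00984), where 0.222% of all genes were higher and 0.124% lower. Without overlap of libraries, 15 genes were higher (5.8% of all genes). Line and vehicle schedule cannot be told apart in this comparison.

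The same senescence contrasts were available among cells with a COPB2 shRNA, which share no library with the control-shRNA contrast. The sets of a line were fitted together with a shared estimate of spread. Same-numbered libraries of different sets often deviated together, so the sets are not independent. In OIS 21 genes fell with shRNA 1 (21.5% of all genes) and 20 with shRNA 2 (22% of all genes), and 19 genes fell in all 3 sets. The share of all genes that passed in all 3 sets was not computed for either model, so counts over all 3 sets are a description. ORC6 and E2F1 rose in all 3 sets, where 15.4% of all genes were higher with shRNA 1 and 14.9% with shRNA 2. With the replicate number as a block, 4 genes rose in OIS with shRNA 2, where same-numbered libraries deviated together. After bleomycin 20 genes fell with shRNA 1 (17.8% of all genes) and 17 with shRNA 2 (18.3% of all genes), 15 of them in all 3 sets. PCNA and TYMS were the 2 genes that rose with the control shRNA and with both COPB2 shRNAs after bleomycin. With shRNA 2, 10 genes rose after bleomycin (21.7% of all genes) and with shRNA 1, 2 genes (17.4% of all genes). LIG1, which rose with the control shRNA and shRNA 2, was at 0.31 with shRNA 1 (adjusted p = 0.162).

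COPB2 knockdown in DMSO-treated cells left no replication gene past the threshold in either line. In ER:RAS cells, for the mean of both shRNAs, 0 of the 44 genes were lower by edgeR (0.014% of all genes) or higher (0%), and 3 had an unadjusted p under 0.05 in the lower direction (0.462% of all genes). DESeq2 also called 0, with 2 at an unadjusted p under 0.05. Most log2 changes were nonetheless below 0, in 37 of 44 genes (84.1%, against 50.4% of all genes), with a median of -0.19 against -0.00 over all genes. Leaving out single libraries gave 29 genes below 0 (without control replicate 2) to 41. The genes share their libraries, so these counts are a description.

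In 5 genes (0.399% of all genes) no library of either COPB2 shRNA reached the lowest control library. RRM2 was 19.1, 19.5 and 25.9 CPM in control libraries, 18.7, 19.01 and 17.2 CPM for shRNA 1 and 12.7, 11.01 and 16.01 CPM for shRNA 2 (mean log2 change -0.50 ± 0.27, unadjusted p = 0.0813 in the edgeR test). TYMS was 40, 35.1 and 41.9 CPM, 34.3, 28.9 and 26.5 CPM and 33.7, 23.1 and 27.8 CPM in the same order (-0.46 ± 0.20, unadjusted p = 0.0373 in edgeR). These differences do not survive adjustment over all genes. UHRF1 was 10.3, 10.3 and 11.8 CPM, 8.64, 7.33 and 10.3 CPM and 7.04, 5.84 and 7.94 CPM (-0.50 ± 0.23). The remaining 2 genes were GINS1 (-0.45) and E2F2 (-0.81). The separation was close to a tie for UHRF1, with 10.26 CPM in the lowest control and 10.25 CPM in the highest COPB2 shRNA library. So it was for RRM2 (19.11 and 19.01 CPM) and GINS1 (4.23 and 4.19 CPM). Gaps were wider for TYMS (35.1 and 34.3 CPM) and E2F2 (1.07 and 0.933 CPM).

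For each shRNA on its own, 6 genes had no overlap with shRNA 1 (1.53% of all genes; CDC6 and the 5 above) and 6 with shRNA 2 (1.2% of all genes; MCM10 and the 5 above). Both shRNAs share the control libraries. CCNE2 had the lowest mean log2 change, -0.97 ± 0.92, which turned to 0.54 without control replicate 3, where CCNE2 was highest. POLD3 (0.14), POLA2 (0.08) and CDT1 (0.06) had the highest values. The sum of the 44 genes was 834 ± 47.9 CPM in control libraries, 789 ± 87.3 CPM for shRNA 1 and 749 ± 75.1 CPM for shRNA 2 (SD, n = 3), with ranges that overlapped. For 20 mitosis genes, taken for comparison, the sum was 196, 168 and 131 CPM, and all 20 had a log2 change below 0.

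In IMR90 cells treated with DMSO the test called 0 genes for the mean of both shRNAs (0.00676% of all genes lower and 0% higher by edgeR), 0 had an unadjusted p under 0.05 in the lower direction, and DESeq2 called 0. Values were below 0 in 30 of 44 genes (53.3% of all genes), with a median of -0.06, and the number was 23 without control replicate 3 and 32 at most when single libraries were left out. RRM2 was 12.8, 7.75, 14.1 and 8.58 CPM in control libraries, 9.36, 8.19, 10.95 and 7.79 CPM for shRNA 1 and 7.37, 6.55, 9.02 and 6.51 CPM for shRNA 2, and had the lowest mean log2 change (-0.39 ± 0.33), with overlapping libraries. Replicate numbers paired the libraries here, and shRNA 2 was below its same-numbered control in 4 of 4 pairs for RRM2, UHRF1, CHAF1B and the summed level of the 44 genes, and shRNA 1 in 3, 2, 3 and 2 of 4. With the replicate number as a block RRM2 was -0.41 (adjusted p = 1). UHRF1 (-0.30) and CHAF1B (-0.25) came next, while GINS2 (0.20), ORC6 (0.17) and PRIM1 (0.16) were highest. No gene was lower without overlap with both shRNAs together (0.135% of all genes), and 3 were with shRNA 2 alone (0.805% of all genes), MCM3, CHAF1A and CHAF1B. The summed level was 647, 635 and 608 CPM. For the 20 mitosis genes the sum was 127, 114 and 99.7 CPM, lower than the same-numbered control in 4 of 4 pairs for each shRNA, and 17 of 20 had a log2 change below 0.

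**Figure D3:**
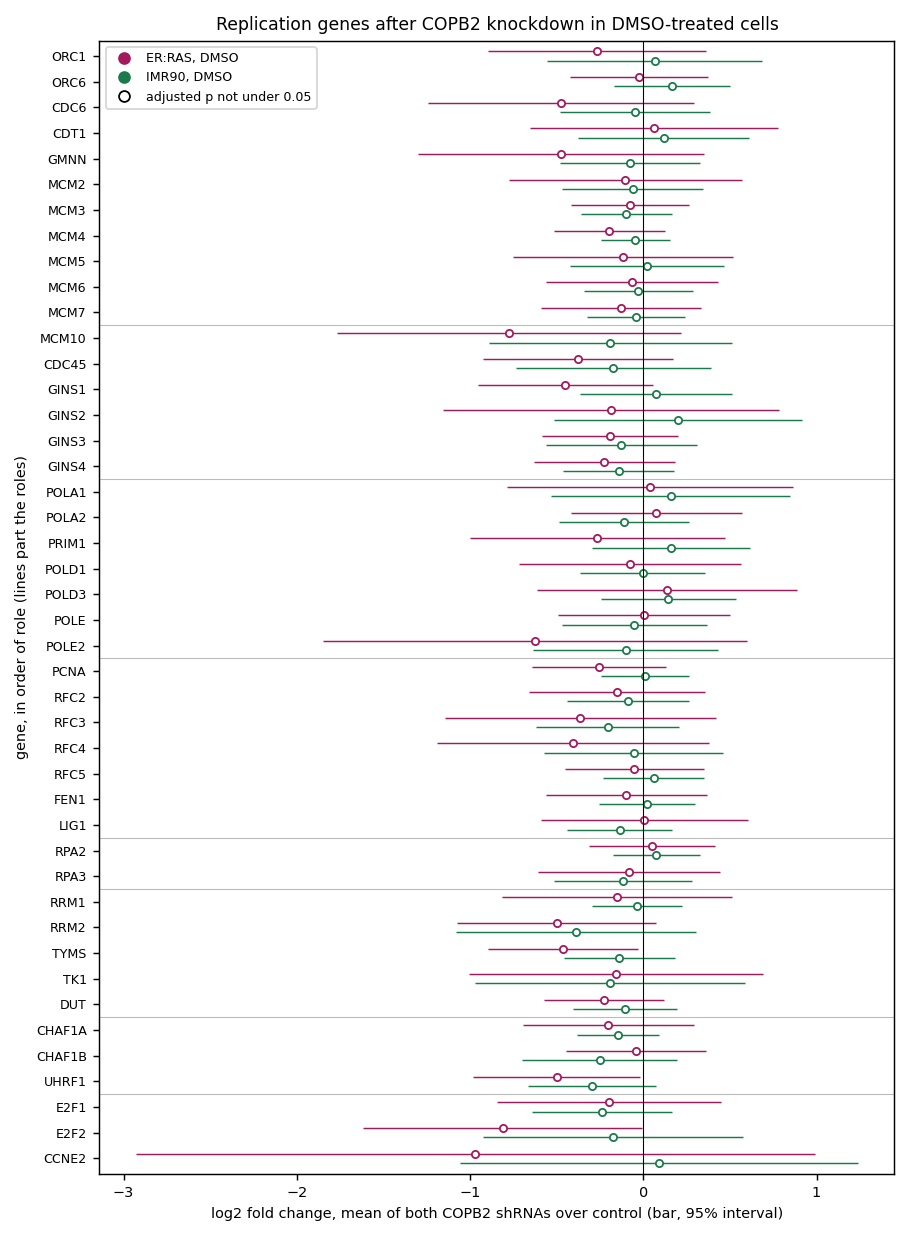
Log2 fold change of each replication gene (horizontal axis) with COPB2 shRNAs over the control shRNA in DMSO-treated cells of both lines, as the mean of both shRNAs with 95% intervals; all points are open because no adjusted p was under 0.05. In ER:RAS cells 37 of 44 points lie left of 0 and in IMR90 cells 30 of 44.

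In senescent cells COPB2 knockdown also left no replication gene past the threshold by edgeR, in either direction, for the mean of both shRNAs. Of all genes 0.238% were higher and 0.028% lower in 4OHT, and 0.0406% and 0.00676% after bleomycin. At an unadjusted p under 0.05, 1 of the 44 genes was lower and 2 were higher in 4OHT, and 0 and 3 after bleomycin, while DESeq2 called 1 gene higher in 4OHT (CDC6) and 0 after bleomycin. The gene that came closest was CDC6. In 4OHT it was 0.812, 1.26 and 2.60 CPM in control libraries, 4.43, 4.90 and 6.63 CPM for shRNA 1 and 6.33, 5.11 and 9.02 CPM for shRNA 2, all COPB2 shRNA libraries being above all control libraries. The mean log2 change was 1.91 ± 0.41 with an adjusted p of 0.0916 (edgeR). Other tools and filters gave 1.92 to 1.96 with adjusted p from 0.00013 (DESeq2) to 0.398 (only the libraries compared), and leaving out single libraries gave 1.62 to 2.54 with adjusted p from 0.0347 (without control replicate 3) to 0.477. CDC6 was 1 of 2 genes higher without overlap there, with GINS3 (0.63), where 2.66% of all genes were. With COPB2 depleted CDC6 was at 4.43 to 9.02 CPM in 4OHT, which overlapped the 3.96 to 9.29 CPM of DMSO-treated cells of that line.

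After bleomycin CDC6 was 2.30, 3.15, 2.07 and 3.16 CPM in control libraries, 3.38, 3.85, 3.82 and 5.54 CPM for shRNA 1 and 5.05, 3.94, 7.75 and 5.18 CPM for shRNA 2, again without overlap. The mean log2 change was 0.84 ± 0.22 (adjusted p = 0.528), and CDC6 was the only replication gene higher without overlap there (0.189% of all genes). In DMSO the same contrast gave -0.47 in ER:RAS (-0.11 without control replicate 3) and -0.05 in IMR90 cells. As an interaction, senescent minus DMSO, the knockdown effect differed by 2.39 ± 0.54 (adjusted p = 0.408) in ER:RAS and 0.89 ± 0.30 (adjusted p = 1.00) in IMR90 cells. Neither difference passed the threshold, and edgeR called 0 of the 44 genes in either interaction (0.00699% of all genes in each direction in ER:RAS and 0% in IMR90 cells), with 2 higher at an unadjusted p under 0.05 in each line and DESeq2 calling 1 in ER:RAS and 0 in IMR90 cells.

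**Figure D4:**
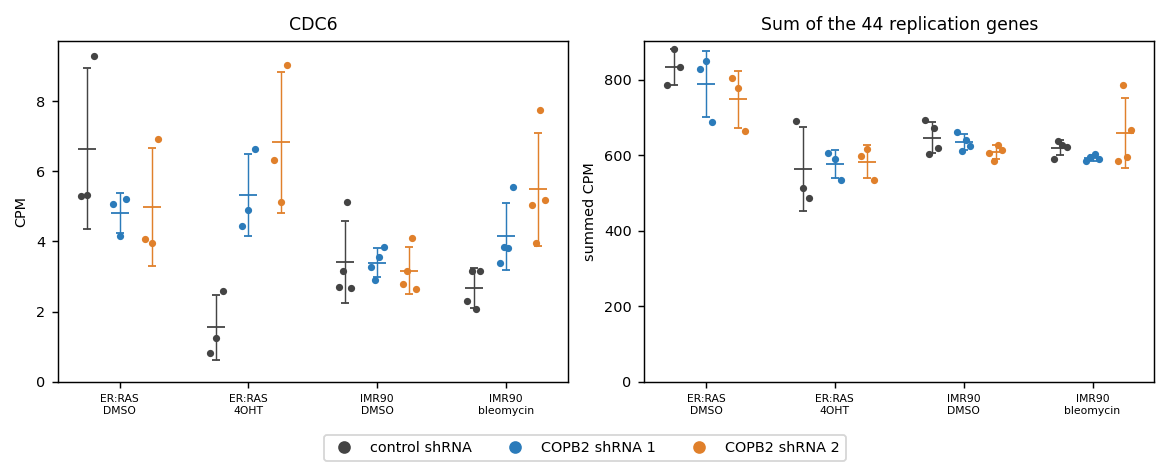
CDC6 level and summed level of the 44 replication genes, both in CPM (vertical axes), for each library (points) over the 12 groups, with mean and SD. By group mean CDC6 is lowest in 4OHT-treated cells with the control shRNA, where libraries run from 0.812 to 2.60 CPM. They overlap the 2.07 to 3.16 CPM of bleomycin-treated IMR90 cells with the control shRNA. In 4OHT with either COPB2 shRNA CDC6 stands at 4.43 CPM or more.

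How the genes with and without the E2F motif in a promoter window moved is given as a description. A gene with several windows counted as having the motif if any of them held it. Over all genes tested, 20.2% fell and 15.5% rose in OIS, and 15.8% fell and 15.4% rose after bleomycin. Of the 22 genes with the motif, 19 fell and 1 rose in OIS, with a median of -1.41, and 10 fell and 3 rose after bleomycin, with a median of -0.64. Of the 15 genes without it, 6 fell and 1 rose in OIS, with a median of -0.89, and 10 fell after bleomycin, with a median of -0.86. The windows are those of the reference, and 7 genes had no entry: MCM4, MCM5, GINS4, POLD3, RPA2, RPA3 and CCNE2.

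A further 42 replication genes outside the 44 were looked at in the same way, of which 10 fell and 3 rose in OIS and 8 fell and 2 rose after bleomycin. The shares that fell, 23.8% in OIS and 19% after bleomycin, were near those of all genes (20.2% and 15.8%). The lowest in OIS was CLSPN, a fork checkpoint mediator, with 3 counts over the 4OHT libraries against 246 in DMSO (ratio 61.3, interval 20.97 to 297), followed by the histone chaperone ASF1B (-3.75) and the topoisomerase TOP2A (-3.22), and TOP2A was the lowest after bleomycin (-1.98). The highest were POLD4, a small polymerase subunit, in OIS (1.96), and RRM2B, the p53-inducible ribonucleotide reductase subunit, after bleomycin (1.59).

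Genes that control E2F and G1 moved in both directions, 7 of 29 falling and 9 rising in OIS, and 7 of 28 tested falling and 9 rising after bleomycin. The shares that fell, 24.1% and 25%, compare with 20.2% and 15.8% of all genes, and 15.5% and 15.4% of all genes rose. MYBL2, an activator of cell-cycle genes, fell in OIS, to 3 counts from 676 (ratio 168, interval 57.6 to 817), and after bleomycin (-3.85). E2F7, a repressor of E2F targets, rose in both (5.27 and 2.61), as did the CDK inhibitors CDKN1A (2.47 and 2.58) and CDKN2B (3.53 and 1.44). Of 20 mitosis genes, 16 fell in OIS and 15 after bleomycin, with MKI67 at 3 counts in 4OHT against 428 in DMSO (ratio 107, interval 36.5 to 517) and AURKA rising in both (0.55 and 1.26).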

How the data were processed

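Poly(A) RNA libraries of 42 samples were analysed from the deposited table of raw read counts, which the authors summed by gene symbol and did not normalize. The study's methods describe directional single-end libraries aligned with Tophat to hg19, whereas the submitters' processing notes name DRAGEN, STAR 2.7.8a, DESeq2 1.32.0 and hg38. An Ensembl annotation and a first-strand setting are stated for the Tophat alignment, and HTSeq is listed among the study's software. Which of these pipelines made the deposited counts, and the counter's settings for strand and overlapping genes, are not given in the sources used here, so overlapping genes and pseudogenes may share reads.

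After filterByExpr and TMM scaling, groups were compared in edgeR 4.0.16 under R 4.3.3 by its robust, two-sided quasi-likelihood test, in a fit of the 18 ER:RAS libraries (14297 genes), of the 24 IMR90 libraries (14783 genes) or, for comparisons across lines, of all 42 (15299 genes). P-values of each of the 22 contrasts were adjusted over its whole gene table (Benjamini-Hochberg), with calls at an adjusted p under 0.05. The script was tested on simulated data. CPM divides each count by the library's TMM-scaled size and multiplies by 1e+06. Intervals on counts cover counting error only. Depth is the total count per library.

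The genes and lists were chosen with earlier results of these data known. Values in every library were given for 12 genes set by role and for genes singled out. The 3 largest and smallest changes of each contrast and all genes not called lower in senescence could be named. Replicate numbers were checked for pairing by the correlation of their deviations from group means: every pair was over 0.1 in the knockdown contrasts of IMR90 and in the OIS contrasts with COPB2 shRNA 1 and shRNA 2, and not in the others. Alternatives were DESeq2 size factors, no filter, the Wald test of DESeq2 1.42.0, a replicate block, only the libraries compared, a fold limit (log2 change of 1 or more in size) and omission of single libraries. Promoters came from RefSeq (GRCh38.p14) and figures from matplotlib 3.10.9.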

Additional observations from a re-analysis of the deposited data

Results flagged for a closer look

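12 replication genes responded differently in the 2 senescence models, by the test of the difference of both log2 changes (OIS minus bleomycin, edgeR, adjusted p under 0.05). All 12 were lower, or 27.3% of the 44 genes, where 12.1% of all 15299 genes tested were lower and 8.14% higher. The differences on the log2 scale were -2.97 for TYMS, -1.97 for PCNA and -1.35 for LIG1, which fell in OIS and rose after bleomycin. They were -1.71 for CDC6, -0.77 for MCM4, -1.16 for GINS1, -1.15 for GINS3, -1.42 for GINS4 and -4.26 for E2F2, which passed the test in OIS alone. They were -1.23 for MCM2, -3.52 for MCM10 and -1.37 for CHAF1B, which fell further in OIS. The difference of MCM2 lost its call in 10 of 14 fits without 1 library, with adjusted p up to 0.210, and in 3 of 5 other settings. In those 5 settings GINS1 lost its call in 2, and GINS3 and CDC6 in 1 each. The values of E2F2 and MCM10 rest on 1 and 2 counts in OIS. LIG1 overlapped between senescent and DMSO libraries in both lines. Trigger and cell line cannot be told apart.

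CDC45 had a library far from the others of its group in 2 groups of 4. It was 2.26 CPM in replicate 4 of bleomycin-treated IMR90 cells with COPB2 shRNA 1, against 0.956 to 1.02 CPM in the other libraries. It was 0.700 CPM in replicate 2 of DMSO-treated IMR90 cells with COPB2 shRNA 2, against 1.19 to 1.25 CPM. By chance about 1 in 20 such groups would stand out, and 72 were examined, with 2 passing.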

How the results depend on the processing

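Under the alternatives 16 to 32 of the 44 genes fell in OIS and 9 to 24 after bleomycin. The 16 came from a fit of only the libraries compared and the 9 from a fold limit (log2 change of 1 or more in size). With DESeq2 size factors the median of all genes in OIS moved from -0.08 to 0.04 and that of the 44 genes from -1.04 to -0.92. Knockdown in DMSO-treated cells gave 0 calls in either line under every alternative. Alternatives for CDC6 in senescent cells and for the 12 genes that differed between the models were chosen after seeing the data. Low counts limit MCM10, POLE2, E2F2 and CCNE2.

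The number of genes called higher also moved. In OIS it was 1 without a filter, 0 with only the libraries compared and 1 with the fold limit, and 0 to 3 when single libraries were left out. With the fold limit it was 1 in OIS with shRNA 1, and after bleomycin 2 genes were higher with shRNA 2 and 12 lower with shRNA 1. With only the libraries compared it was 6 after bleomycin with shRNA 2 and 0 for ER:RAS against IMR90 cells in DMSO. By the DESeq2 Wald test it was 4 after bleomycin with shRNA 1, 1 between the models, 2 between the lines in DMSO and 1 for knockdown after bleomycin with shRNA 2. For knockdown in 4OHT it was 1 (CDC6) for the mean with size factors, and 1 for each shRNA, the mean and the interaction by the Wald test.

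With the replicate number as a block, 4 genes were higher in OIS with shRNA 2, 5 after bleomycin, 7 after bleomycin with shRNA 1, 2 between the models, 4 between the lines in DMSO, and 1 (CDC6) for knockdown in 4OHT with each shRNA, for their mean and for the interaction. Of these comparisons the numbers paired the libraries only in OIS with shRNA 2, and where they paired, the block moved no other count by over 1.5 times. FEN1 in OIS turned to -0.0296 with the block.

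Leaving out single libraries gave 1 to 3 genes higher in OIS with shRNA 1, 1 to 2 with shRNA 2, 2 to 5 after bleomycin, 0 to 1 between the models and between the lines, and 0 to 1 for knockdown in 4OHT (mean and shRNA 2, the 1 being without control replicate 3). Log2 changes that turned sign ranged in OIS from -0.14 to 0.56 for POLD1, -0.22 to 0.29 for RFC2, -0.37 to 0.27 for FEN1 and -0.78 to 0.0237 for RFC4, and after bleomycin from -0.19 to 0.19 for CDT1 and -0.15 to 0.0318 for RRM1. For knockdown in DMSO-treated ER:RAS cells they ranged from -0.0736 to 0.33 for CDT1, -0.33 to 0.28 for MCM2, -0.0538 to 0.26 for POLA2, -0.0259 to 0.32 for POLD3, -0.32 to 0.20 for RPA3 and -1.52 to 0.54 for CCNE2, and in IMR90 cells from -0.16 to 0.22 for CDC6, -0.20 to 0.0476 for GMNN, -0.13 to 0.0766 for MCM2, -0.23 to 0.0362 for POLE2, -0.0249 to 0.11 for PCNA and -0.22 to 0.35 for CCNE2. The causes were not tested.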
